A study of Mus musculus with 6 samples.

Results

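Immunoglobulin light-chain variable (V) segments were examined in RNA of whole mouse lung. The segments were taken as the entries of the deposited count table with the biotype IG_V_gene, a name starting with Igkv (kappa) or Iglv (lambda), and a count of at least 10 summed over all 6 libraries. The rule kept 81 segments, 78 kappa and 3 lambda, of the 103 light-chain V entries among the 54532 genes of the table. The segments were thus chosen by their summed count, so their abundance is a description. The rule did not use the difference between genotypes. Its sum ran over both, so a segment with few counts in 1 genotype could enter through the other. Lungs of 3 WT mice and 3 ISM1-/- mice were perfused to remove blood, and each mouse gave 1 library. All mice were untreated, on the C57BL/6J background and 2 months old. ISM1 (isthmin-1) is a secreted protein that is highly expressed in lung. The WT mice came from a supplier and the mutants from the authors' own colony, so the effects of genotype and of origin cannot be told apart.

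A light chain is built when a developing B cell joins 1 V segment to 1 J segment with the RAG recombinase, and the joined exon is then spliced to a constant region. Kappa chains use Igkv and Igkj segments with the constant gene Igkc, and lambda chains use Iglv and Iglj segments with Iglc genes. Most mouse antibodies carry kappa. Each B cell expresses 1 light chain, and plasma cells, which secrete antibody, hold far more of its RNA than resting B cells, so segment counts of a tissue mix the number of clones with how much RNA each makes.

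The total counts ranged from 37606133 to 42345042 per library. The transcript of the targeted gene was not lost. Ism1 had 3098, 3215 and 2975 counts in the WT lungs and 2784, 2508 and 2953 counts in the lungs labelled ISM1-/- (log2 fold change -0.19, SE 0.07, Benjamini-Hochberg adjusted p = 0.217, edgeR). The part of the gene that was deleted is not given in the sources used here, so the mutant libraries are named by their label throughout. Markers of lung epithelium were present in every library. Some libraries stood apart in other genes. WT mouse 3 had 1075 counts of Rag1, 56 of Rag2 and 390 of Dntt, the enzymes of V(D)J joining, while the other libraries had at most 20, 0 and 13 counts. The mouse labelled ISM1-/- 1 had 57 counts of Glycam1, a gene of lymph node vessels, which had 0 counts elsewhere. Levels are given in CPM, the counts of a gene per 1000000 counts of its library, with library sizes scaled by TMM. The summed level of cardiomyocyte markers was 1467 CPM in WT mouse 1 and between 252 and 557 in the other libraries.

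The sequences of the segments that carry the largest differences follow, all read 5′ to 3′ on the coding strand from the GENCODE M21 transcripts of GRCm38. Igkv5-43 had the largest rise among the segments that passed the test, and its V exon at chr6:69823355-69823652 (minus strand) is shown beside that of Igkv5-45 at chr6:69775750-69776047 (minus strand), its closest relative, which had few counts. The capitals mark the 3 bases of 298 that differ.
Igkv5-43: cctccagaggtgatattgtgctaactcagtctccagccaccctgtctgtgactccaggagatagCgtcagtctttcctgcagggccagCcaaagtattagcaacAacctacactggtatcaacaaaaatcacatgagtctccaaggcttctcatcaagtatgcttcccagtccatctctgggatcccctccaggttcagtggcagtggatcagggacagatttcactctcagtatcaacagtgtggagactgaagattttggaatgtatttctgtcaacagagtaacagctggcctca
Igkv5-45: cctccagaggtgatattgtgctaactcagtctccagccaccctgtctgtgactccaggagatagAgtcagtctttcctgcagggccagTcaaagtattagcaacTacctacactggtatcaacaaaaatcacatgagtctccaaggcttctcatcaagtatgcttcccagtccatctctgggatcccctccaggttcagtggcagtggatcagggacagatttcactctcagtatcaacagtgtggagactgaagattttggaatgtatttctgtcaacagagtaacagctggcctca

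The next sequences are the last 75 bases of the V exons, the end that is joined to a J segment, for the segments with the most counts or the largest differences. The capitals mark a match to TANTNNTGN. These letters can hold the tyrosine and cysteine codons at the close of framework 3, just before a region that contacts antigen. Only the coding strand of these 75 bases was searched. A match was found in 79 of the 81 segments and in 96.1% of all 103 light-chain V entries. Iglv3 is printed without capitals because these letters are not in its window.
Igkv5-43: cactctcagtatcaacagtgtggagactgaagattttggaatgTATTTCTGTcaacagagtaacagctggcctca
Igkv4-57: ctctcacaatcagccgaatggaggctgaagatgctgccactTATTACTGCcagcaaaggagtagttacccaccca
Igkv6-23: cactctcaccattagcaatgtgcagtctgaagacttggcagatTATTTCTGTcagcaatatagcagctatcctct
Igkv6-15: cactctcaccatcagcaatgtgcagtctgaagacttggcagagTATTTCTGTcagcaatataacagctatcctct
Igkv10-96: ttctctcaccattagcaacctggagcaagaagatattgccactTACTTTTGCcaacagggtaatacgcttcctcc
Igkv1-117: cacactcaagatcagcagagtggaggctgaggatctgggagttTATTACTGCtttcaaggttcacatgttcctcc
Igkv1-110: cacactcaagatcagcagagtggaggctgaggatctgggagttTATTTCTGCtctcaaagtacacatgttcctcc
Igkv1-135: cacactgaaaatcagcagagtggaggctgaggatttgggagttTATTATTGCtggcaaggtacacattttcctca
Igkv19-93: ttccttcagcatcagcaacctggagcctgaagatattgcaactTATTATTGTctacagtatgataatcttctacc
Igkv14-126: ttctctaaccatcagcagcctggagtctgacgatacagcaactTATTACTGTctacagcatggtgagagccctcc
Iglv1: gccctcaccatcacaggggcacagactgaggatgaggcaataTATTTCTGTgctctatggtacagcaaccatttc
Iglv2: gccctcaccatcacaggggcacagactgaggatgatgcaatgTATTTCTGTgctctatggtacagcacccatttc
Iglv3: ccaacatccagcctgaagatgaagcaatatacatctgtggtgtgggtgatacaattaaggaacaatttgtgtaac

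Among these, the windows of Igkv5-43 at chr6:69823355-69823429 and Igkv14-126 at chr6:67896568-67896642 belong to the called segments with the largest rise and the only fall, and that of Iglv1 at chr16:19085017-19085091 to the most abundant segment. The V exons of Iglv1 and Iglv2 differed by 8 substitutions and 3 gap bases (96.4% identity), and both were far from Iglv3 (55.9% and 55.2%).

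Kappa and lambda V transcripts were both more abundant in the libraries labelled ISM1-/-, and neither sum overlapped between genotypes. The 78 kappa V segments summed to 29.5, 27.8 and 34.1 CPM in WT mice and to 83.9, 54.8 and 58.1 CPM in the mice labelled ISM1-/-. The means were 30.5 ± 3.27 and 65.6 ± 15.9 CPM (SD, n = 3), a ratio of 2.15. These sums rested on 1113, 1155 and 1321 reads in WT and 3571, 2082 and 2268 reads in the other genotype. The highest value was that of the mouse labelled ISM1-/- 1, and the log2 ratio of 1.11 was 0.89 without it. The 3 lambda V segments summed to 3.68, 4.21 and 3.51 CPM in WT and to 9.14, 8.19 and 5.66 CPM in the libraries labelled ISM1-/- (3.803 ± 0.365 and 7.66 ± 1.799 CPM, SD, n = 3), a ratio of 2.01. No p-value is given for these sums, since the segments were chosen with earlier results known. In bulk tissue, more cells of a type and more RNA per cell cannot be told apart.

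**Figure D1:**
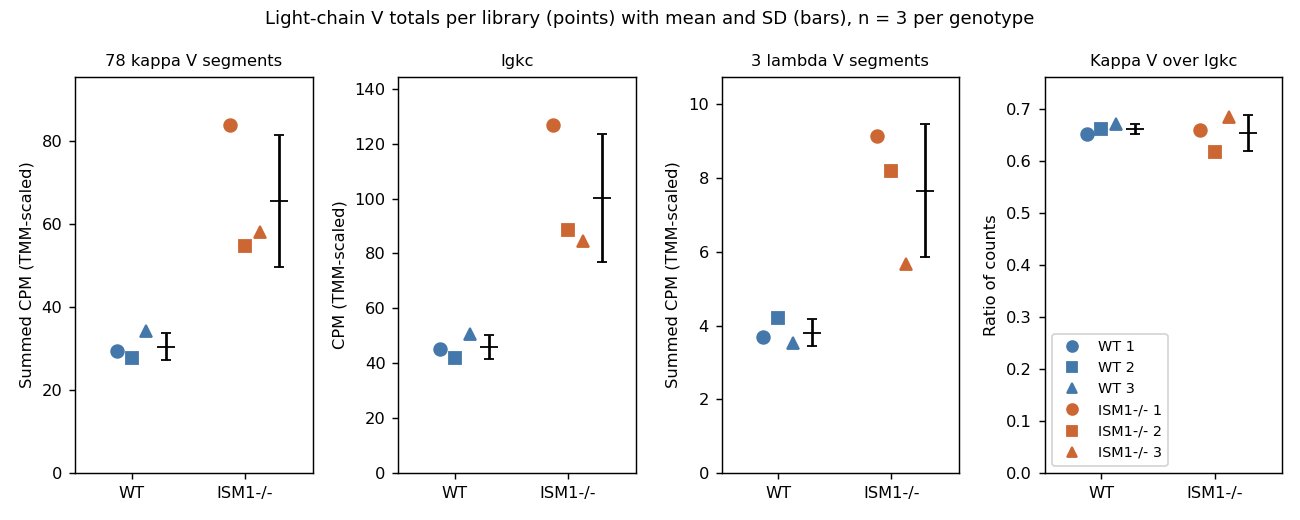
Level of kappa V segments, Igkc and lambda V segments (TMM-scaled CPM) and the ratio of kappa V to Igkc counts, with 1 point per library, the mean and the SD (n = 3 per genotype, WT in blue and libraries labelled ISM1-/- in orange). All 3 libraries labelled ISM1-/- lie above all WT libraries for the 3 levels, while the ratio lies between 0.618 and 0.686 in all 6 libraries.

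The constant region moved with the V segments. Igkc, the constant gene of every kappa chain (chr6:70726435-70726966, plus strand, GRCm38), had 1704, 1743 and 1966 counts in the WT lungs and 5399, 3369 and 3307 counts in the lungs labelled ISM1-/-. It rose by a log2 fold change of 1.12 (SE 0.14, Benjamini-Hochberg adjusted p = 0.0104, edgeR). Without the mouse labelled ISM1-/- 1 the log2 fold change was 0.92, under the 2-fold minimum. The ratio of kappa V counts to Igkc counts was 0.653, 0.663 and 0.672 in WT and 0.661, 0.618 and 0.686 in the other genotype, so the genotypes overlapped. Igkj segments, the short exons between V and constant region, summed to 122, 134 and 152 counts in the WT lungs and 265, 190 and 199 counts in the lungs labelled ISM1-/-, a CPM ratio of 1.57. Of these, Igkj3, which is not functional in mice, took 16.4%, 18.7% and 22.4% of Igkj counts in the WT lungs and 12.5%, 15.3% and 12.6% in the other genotype. Its own counts overlapped between genotypes (20, 25 and 34 against 33, 29 and 25), and none of the 5 Igkj segments was called by edgeR (3 at an unadjusted p under 0.05) or by DESeq2.

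The lambda share depended on which part of the transcript was counted. Lambda segments took 11.1%, 13.2% and 9.33% of light-chain V counts in the WT lungs and 9.82%, 12.996% and 8.88% in the libraries labelled ISM1-/-, and the genotypes overlapped. The exact 95% binomial intervals, which cover counting error only, ran from 7.89% to 15.1% over the WT libraries and from 7.79% to 14.4% over the others. Of constant-region counts (Igkc and Iglc1 to Iglc4), lambda took 21.7%, 22.5% and 21.3% in WT and 18.1%, 20.5% and 14.9% in the libraries labelled ISM1-/-, and here the genotypes did not overlap. Iglc1 to Iglc4 summed to 12.5, 12.2 and 13.7 CPM in WT and 28.0, 22.8 and 14.8 CPM in the other genotype, a ratio of 1.71. Iglc1 had 75, 112 and 106 counts in the WT lungs and 244, 164 and 148 counts in the lungs labelled ISM1-/-, and its rise stayed under 2-fold (log2 fold change 0.90, SE 0.20, Benjamini-Hochberg adjusted p = 0.0488, edgeR). Iglc2 and Iglc3, whose log2 fold changes were 0.72 and 0.77, had adjusted p of 0.103 and 0.151 in the same edgeR fit. Iglc4 had at most 2 counts in any library.

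Each lambda segment is described in turn. Iglv1 was the most abundant light-chain V segment of both genotypes, and it is joined mainly to the J segment of Iglc1. It had 82, 110 and 84 counts in the WT lungs and 225, 198 and 145 counts in the lungs labelled ISM1-/-, a rise of 1.02 on the log2 scale (SE 0.18, Benjamini-Hochberg adjusted p = 0.0249, edgeR). The call was kept without WT mouse 2 and without mouse 3 labelled ISM1-/-, while without each of the other 4 libraries the log2 fold change was from 0.94 to 0.98, under the 2-fold minimum. Without mouse 1 and without mouse 2 labelled ISM1-/- the adjusted p by edgeR was also above 0.1, at 0.102 and 0.107. The genotypes did not overlap, and reads of Iglv1 per read of Iglc1 were 1.09, 0.982 and 0.792 in WT and 0.922, 1.21 and 0.980 in the other genotype. Iglv3 had 29, 31 and 17 counts in the WT lungs and 82, 52 and 48 counts in the lungs labelled ISM1-/-, again without overlap (log2 fold change 1.21, SE 0.29, adjusted p = 0.0663 by edgeR). This call was kept without WT mouse 1 and without mouse 3 labelled ISM1-/-, and lost in the other 4 of the 6 fits that left out a library. Iglv2 had 28, 34 and 35 counts in the WT lungs and 82, 61 and 28 counts in the other genotype. The mouse labelled ISM1-/- 3 lay within the WT range for Iglv2, and the segment did not pass the test (log2 fold change 0.79, adjusted p = 0.304 by edgeR).

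Over single segments, the mean CPM was higher in the libraries labelled ISM1-/- for 75 of the 81 segments (92.6%), beside 50.8% of the 24561 genes with a summed count of at least 10. The median ratio of means was 2.03, beside 1.002 over those genes. The same minimum, summed over both genotypes, chose the segments and those genes. A segment with few WT counts could thus enter through the libraries labelled ISM1-/-, as Igkv9-123 did, with 0, 0 and 2 counts against 1, 7 and 4. How many segments did so was not counted. All 3 libraries labelled ISM1-/- lay above all WT libraries for 24 segments (29.6%), where 8.37% of all genes did so. The reverse held for 1 segment, Igkv14-126, where 11% of all genes did so. Without the mouse labelled ISM1-/- 3 the count of 24 became 49, beside 16.1% of all genes with the same library left out. The mouse labelled ISM1-/- 1 had the highest level of all 6 libraries for 42 segments, the mice labelled 2 and 3 for 20 and 12, and a WT mouse for 7. How often each library was highest over all genes was not counted.

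In the edgeR fit over 18689 genes, 57 of the 81 segments passed the filter of 0.5 CPM in at least 1 library. A segment was called when its adjusted p was below 0.1 and its level changed at least 2-fold. Of the 57 segments, 10 were called higher in the libraries labelled ISM1-/-, beside 0.284% of all genes tested, and 1 was called lower, beside 0.284%. Of the 57, 30 passed the filter in both genotypes, 1 in WT alone and 26 in the libraries labelled ISM1-/- alone. A segment of the last kind entered the test because it was high in that genotype. Both Igkv8-21 and Igkv12-44 of the called segments entered in this way. The calls with a WT mouse left out numbered 7 without mouse 1, 3 without mouse 2 and 5 without mouse 3. They numbered 5, 4 and 22 without the mice labelled ISM1-/- 1, 2 and 3. Igkv5-43 and Igkv6-23 were called in all 6 of these fits and Igkv4-57 in 5, with an adjusted p of 0.102 in the fit without WT mouse 2.

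**Figure D2:**
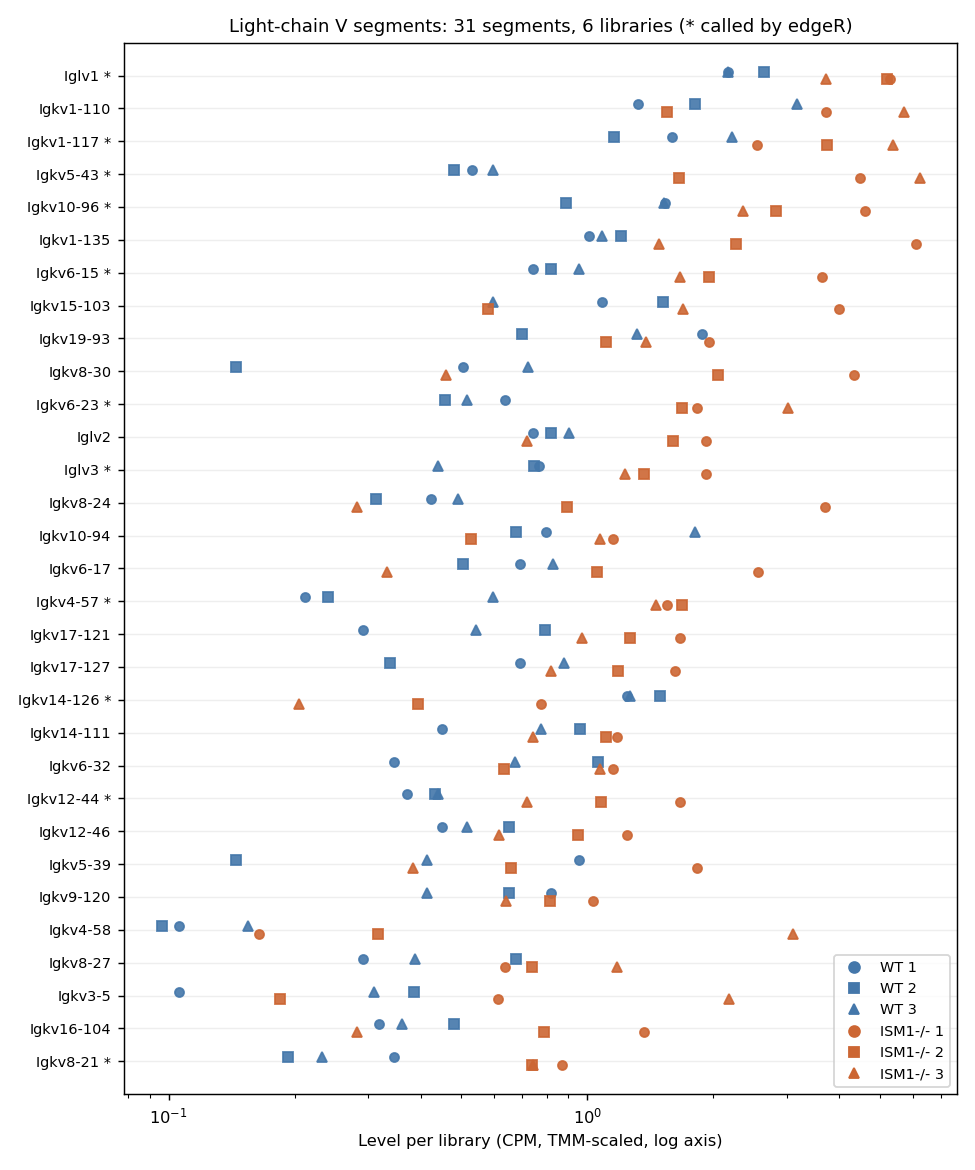
Level (TMM-scaled CPM, log axis) of 31 light-chain V segments in each library, for the 30 most abundant and Igkv8-21, with WT in blue above each line and libraries labelled ISM1-/- in orange below it, and asterisks on the 11 segments called by edgeR. The orange points lie to the right of the blue points for 10 called segments and to the left for Igkv14-126.

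The rise of Igkv5-43 (chr6:69823355-69823943, minus strand) was the largest called. It had 20, 20 and 23 counts in the WT lungs and 191, 63 and 243 counts in the lungs labelled ISM1-/-, a log2 fold change of 2.94 (SE 0.44, Benjamini-Hochberg adjusted p = 0.0163, edgeR). Even the lowest of the latter was over the highest WT count, and the spread among them was wide. The log2 fold change was 2.53 without mouse 3 and 2.88 without mouse 1 of that label. As a share of kappa V counts, Igkv5-43 took 1.80%, 1.73% and 1.74% in WT and 5.35%, 3.03% and 10.7% in the libraries labelled ISM1-/-. Its near copy Igkv5-45, printed above with the 3 differing bases, had 4, 5 and 3 counts in the WT lungs and 6, 6 and 8 counts in the other genotype. Igkv5-45 did not pass the filter and was named after its values had been seen. Of the 100-base windows of the whole Igkv5-43 transcript, leader included, 33.6% also occurred in another light-chain V entry. A part of its reads could thus have been assigned to either segment. The percentage for the V exon alone was not computed.

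Igkv4-57 and Igkv6-23 rose in all 3 mice labelled ISM1-/-. Igkv4-57 (chr6:69575975-69576500, minus strand) had 8, 10 and 23 counts in the WT lungs and 66, 64 and 57 counts in the lungs labelled ISM1-/- (log2 fold change 2.16, SE 0.36, Benjamini-Hochberg adjusted p = 0.0201, edgeR). All 3 of the latter exceeded every WT count. Igkv6-23 (chr6:70260409-70260955, minus strand) had 24, 19 and 20 counts in the WT lungs and 78, 64 and 118 counts in the lungs labelled ISM1-/- (log2 fold change 2.02, SE 0.30, adjusted p = 0.0153 in the same edgeR fit). Neither V exon shared a 100-base window with another light-chain V entry. Igkv6-15, of the same subgroup as Igkv6-23 and 94.6% identical to it, had 28, 34 and 37 counts in the WT lungs and 155, 74 and 65 counts in the other genotype. It rose by 1.53 on the log2 scale (SE 0.32, adjusted p = 0.0391 by edgeR), and its mouse labelled ISM1-/- 1 was the highest. The call was lost without that mouse and without WT mouse 2.

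In each of the remaining 4 kappa segments called higher the genotypes did not overlap. Igkv8-21 had 13, 8 and 9 counts in the WT lungs and 37, 28 and 29 counts in the lungs labelled ISM1-/- (log2 fold change 1.61, SE 0.33, Benjamini-Hochberg adjusted p = 0.0403, edgeR). Igkv12-44 had 14, 18 and 17 counts in the WT lungs and 71, 41 and 28 counts in the other genotype (log2 fold change 1.48, adjusted p = 0.0636 by edgeR). Both were low in WT, and they are the segments that entered the test through 1 genotype. Igkv10-96 had 58, 37 and 59 counts in the WT lungs and 196, 107 and 92 counts in the lungs labelled ISM1-/- (log2 fold change 1.31, adjusted p = 0.0527 by edgeR). Igkv1-117 had 60, 48 and 86 counts in the WT lungs and 108, 142 and 210 counts in the other genotype (log2 fold change 1.23, adjusted p = 0.0715 by edgeR). The mice that were highest differed, with Igkv10-96 led by mouse 1 and Igkv1-117 by mouse 3 of the libraries labelled ISM1-/-. These 4 calls were lost in most fits that left out a library. Igkv8-21 and Igkv10-96 were called without WT mouse 1 and without mouse 3 labelled ISM1-/-, Igkv1-117 without WT mouse 3 and without mouse 1 labelled ISM1-/-, and Igkv12-44 without mouse 3 of that label alone. DESeq2 called 9 of the 10 segments called higher and gave no adjusted p for Igkv8-21.

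Igkv14-126 (chr6:67896172-67896642, plus strand) went against the other called segments. It had 47, 62 and 49 counts in the WT lungs and 33, 15 and 8 counts in the lungs labelled ISM1-/-, a log2 fold change of -1.52 (SE 0.39, Benjamini-Hochberg adjusted p = 0.0789, edgeR). Every WT count was above every count of the other genotype. By mean CPM it had rank 4 of 81 in WT and rank 48 in the libraries labelled ISM1-/-. As a share of kappa V counts it took 4.22%, 5.37% and 3.71% in WT and 0.924%, 0.720% and 0.353% in the other genotype. Its V exon shared no 100-base window with another light-chain V entry, and its nearest relative, Igkv14-111, was 90.9% identical. The other 2 Igkv14 segments summed to 0.662, 1.11 and 1.09 CPM in WT and to 1.62, 1.32 and 1.20 CPM in the other genotype. The call was lost in 4 of the 6 fits that left out a library and kept without the mouse labelled ISM1-/- 1 and without mouse 3, where the log2 fold changes were -2.15 and -1.17.

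Other abundant segments varied widely between mice of 1 genotype and were not called in the edgeR fit. Igkv1-110, the most counted kappa segment in WT mice 2 and 3, had 50, 75 and 123 counts in the WT lungs and 158, 59 and 223 counts in the lungs labelled ISM1-/- (log2 fold change 0.80, SE 0.43, Benjamini-Hochberg adjusted p = 0.418, edgeR). The genotypes overlapped, with the mouse labelled ISM1-/- 2 lower than 2 of the WT mice. Igkv1-135 had 38, 50 and 42 counts in the WT lungs and 260, 86 and 58 counts in the other genotype. These did not overlap, and the segment missed the threshold (log2 fold change 1.58, SE 0.46, adjusted p = 0.115 by edgeR). It was called by DESeq2 (adjusted p = 0.00399) and by edgeR with no filter beyond 1 count and without mouse 3 labelled ISM1-/-, and its log2 fold change was 0.77 without mouse 1 of that label. Igkv8-30 had 19, 6 and 28 counts in the WT lungs and 185, 78 and 18 counts in the lungs labelled ISM1-/- (log2 fold change 2.34, SE 0.72, adjusted p = 0.139 by edgeR), and mouse 3 of the latter lay within the WT range. It was called by edgeR without that mouse and with no filter beyond 1 count. Igkv15-103 had 41, 63 and 23 counts in the WT lungs and 170, 22 and 66 counts in the other genotype, from the lowest of all 6 libraries to the highest (log2 fold change 0.97, adjusted p = 0.460 by edgeR).

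The smallest differences among segments of at least 1 CPM were those of Igkv19-93 and Igkv10-94. Igkv19-93, the most counted kappa segment of WT mouse 1, had 71, 29 and 51 counts in the WT lungs and 83, 42 and 54 counts in the lungs labelled ISM1-/- (log2 fold change 0.20, SE 0.35, Benjamini-Hochberg adjusted p = 0.850, edgeR). Igkv10-94 had 30, 28 and 70 counts in the WT lungs and 49, 20 and 42 counts in the other genotype (log2 fold change -0.24, SE 0.42, adjusted p = 0.849 by edgeR). Both overlapped between genotypes, and their signs turned when single libraries were left out. With the kappa sum at a ratio of 2.15, the share of Igkv19-93 among kappa V counts was 6.38%, 2.51% and 3.86% in WT and 2.32%, 2.02% and 2.38% in the libraries labelled ISM1-/-.

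Kappa usage, the share of each segment among the kappa V counts of 1 library, was broad in every mouse. In WT, 73 of the 78 kappa segments had a count in each library, and in the libraries labelled ISM1-/- 78, 78 and 75 had one. At an equal depth of 1113 counts the expected numbers were 73, 72.8 and 72.6 in WT and 73.4, 76.3 and 71.0 in the other genotype, and the genotypes overlapped. The evenness (Pielou's index, Shannon entropy over its maximum, 1 when all segments are equal) was 0.893, 0.884 and 0.886 in WT and 0.876, 0.915 and 0.821 in the libraries labelled ISM1-/-. The effective number of segments (inverse Simpson index) was 37.2, 35.5 and 32.8 in WT and 32.8, 41.1 and 21.8 in the other genotype. Mouse 3 of the libraries labelled ISM1-/- was the least even and mouse 2 the most even of all 6, with WT in between. The mean differences were -0.0170 for evenness and -3.24 for the effective number, each smaller than the SD within the libraries labelled ISM1-/- (0.0472 and 9.66), and both turned positive without mouse 3 (0.00786 and 1.79).

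**Figure D3:**
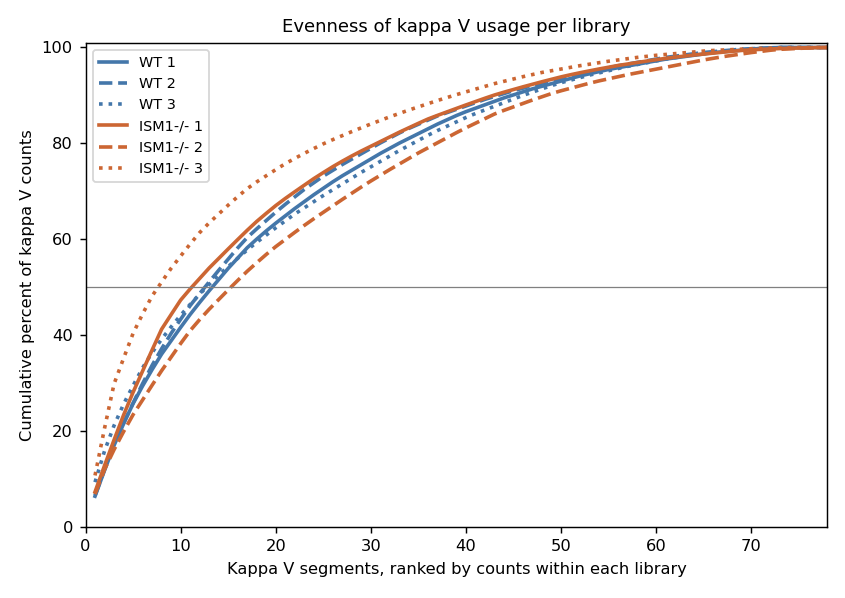
Cumulative percent of kappa V counts (y axis) over the 78 kappa V segments ranked by counts within each library (x axis), with 1 line per library (WT blue, libraries labelled ISM1-/- orange). The line at 50% is reached after 14, 13 and 13 segments in WT and after 12, 16 and 8 segments in the libraries labelled ISM1-/-, so the orange lines lie on both sides of the blue ones.

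The leading segment differed from mouse to mouse. It was Igkv19-93 in WT mouse 1, with 6.38% of kappa V counts (exact 95% binomial interval 5.02% to 7.98%), and Igkv1-110 in WT mice 2 and 3, with 6.49% and 9.31%. In the libraries labelled ISM1-/- it was Igkv1-135 in mouse 1 with 7.28% (6.45% to 8.18%), Igkv1-117 in mouse 2 with 6.82% (5.77% to 7.99%) and Igkv5-43 in mouse 3 with 10.7% (9.47% to 12.1%). The 5 leading segments together took 25.7%, 25.8% and 29.4% of kappa V counts in the WT lungs and 28.1%, 23.4% and 40.3% in the libraries labelled ISM1-/-. The usage that 2 libraries shared, the sum over segments of the lower of their shares, averaged 75.4% between WT mice (range 72.9% to 78.5%). It averaged 68.2% between mice labelled ISM1-/- (64.4% to 75.3%) and 69.7% between genotypes (63.1% to 75.3%). The pairs with mouse 3 labelled ISM1-/- were low within its own genotype, at 64.4% and 64.9%, and the remaining pair of that genotype was within the WT range. The spread of usage between mice, beyond counting error, was pooled over the segments, so the abundant ones weigh most. It was 33.7% of the expected counts in WT and 50.8% in the libraries labelled ISM1-/-, and was not computed without mouse 3 of that label.

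**Figure D4:**
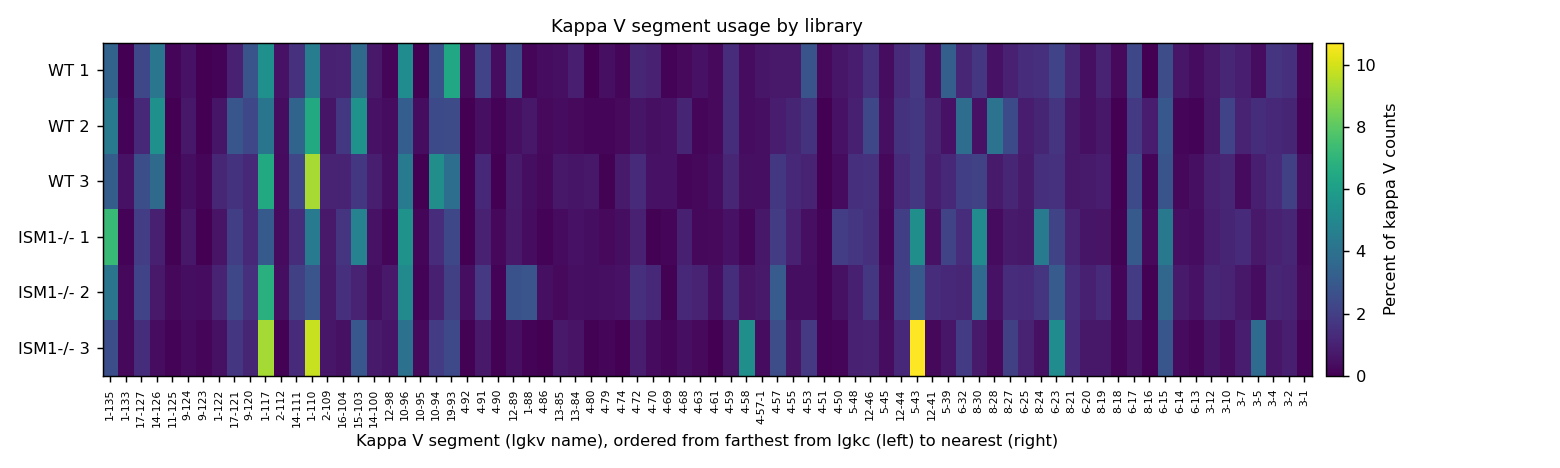
Share of kappa V counts (color, percent) of each of the 78 kappa V segments (columns, ordered by distance from Igkc) in each library (rows). Igkv5-43 reaches 10.7% and Igkv4-58 5.34% in mouse 3 labelled ISM1-/-, Igkv1-135 7.28% in mouse 1, and Igkv14-126 lies between 3.71% and 5.37% in WT and under 1% in the other rows.

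Segments that stood high in a single mouse were counted. A segment was counted when its highest library had at least 20 counts and at least 3 times the median CPM of its genotype, and these segments were found after their values had been seen. In the libraries labelled ISM1-/- this held for 7 of the 53 segments with 20 counts in a library, and in WT for 1 of 29. Igkv4-58 had 4, 4 and 6 counts in the WT lungs and 7, 12 and 121 counts in the lungs labelled ISM1-/-, and mouse 3 alone carried its ratio of 10.02. Igkv4-50 had 7, 6 and 4 counts against 70, 10 and 3, with mouse 1 high. Igkv1-88 had 2, 8 and 5 counts against 13, 59 and 2, with mouse 2 high. The other 4 of that genotype were Igkv8-24, led by mouse 1, Igkv3-5, led by mouse 3, and Igkv4-70 and Igkv4-63, led by mouse 2. In WT the segment was Igkv8-28, with 6, 47 and 10 counts. Fewer segments could be counted in WT, where fewer reached 20 counts.

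The kappa segments lie on mouse chromosome 6 between 22.3 and 3116 kb from Igkc. Nearer segments had a larger ratio. The 30 segments within 1000 kb of Igkc summed to 10.04, 10.7 and 11.4 CPM in WT and 37.9, 21.7 and 23.8 CPM in the libraries labelled ISM1-/-, a ratio of 2.59, or 2.33 without Igkv5-43. The ratio was 2.12 for the 26 segments from 1000 to 2000 kb and 1.82 for the 22 beyond. The share of the nearest group among kappa V counts was 34.1%, 38.4% and 33.5% in WT. It was 45.2%, 39.6% and 40.9% in the libraries labelled ISM1-/-, without overlap. Igkv5-43, a member of this group, alone took 1.80%, 1.73% and 1.74% in WT and 5.35%, 3.03% and 10.7% in the other genotype. The share of the group was not computed without it, so the lack of overlap may rest on that segment. Segments on the strand opposite to Igkc, which join by inversion of the DNA between them, numbered 49 and had a ratio of 2.41 (2.23 without Igkv5-43), and the 29 on the same strand, which join by deletion, had 1.87. The share of the opposite strand was 56.2%, 49.1% and 51.6% in WT and 58.2%, 61.7% and 56.4% in the other genotype. It also includes Igkv5-43 and was not computed without that segment. Igkv14-126, the only segment called lower, lies 2830 kb from Igkc on the same strand. The ratios of the farthest group and of the same strand were not computed without it. Distance, strand and subgroup go together along the locus, and these differences were not tested.

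**Figure D5:**
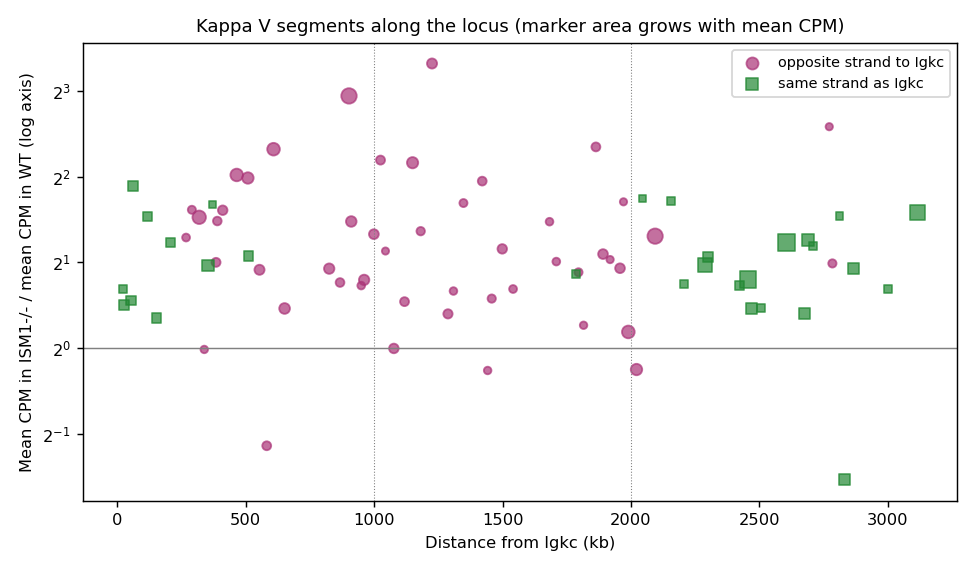
Ratio of the mean CPM in the libraries labelled ISM1-/- to that in WT (y axis, log scale) against the distance from Igkc (x axis, kb) for 78 kappa V segments, with circles for segments on the strand opposite to Igkc, squares for the same strand, and marker area growing with the mean CPM. The summed ratio is 2.59 within 1000 kb, 2.12 from 1000 to 2000 kb and 1.82 beyond, and 72 of the 78 segments lie above 1.

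By subgroup, families of V segments with similar sequence, the ratio of summed CPM ran from 0.804 for Igkv14 to 4.13 for Igkv5. Both extremes rested on 1 segment. Without Igkv5-43 the other 3 Igkv5 segments had a ratio of 2.09, and without Igkv14-126 the other 2 Igkv14 segments had 1.45. The large subgroups lay close to the kappa sum, with 2.38 for the 21 Igkv4 segments, 2.50 for the 8 Igkv6 segments, 2.62 for the 8 Igkv8 segments, 1.95 for the 7 Igkv3 segments and 2.29 for the 6 Igkv1 segments. The Igkv8 sum was widest among the mice labelled ISM1-/-, at 10.5, 5.56 and 3.38 CPM, against 2.12, 2.89 and 2.43 CPM in WT. The Igkv4 sums of those mice were close to each other, at 9.89, 9.08 and 8.37 CPM against 4.29, 2.98 and 4.24 CPM in WT.

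The V exons of the 81 segments are close in length (284 to 324 bases), and 69 have 2 exons in the annotation, the first of which holds the leader peptide. Many are near copies of each other. The median identity of a segment to its nearest light-chain V relative was 93.3% (range 55.9% to 99.0%), and 30 segments had one of at least 95%. A window of 100 bases shared exactly with another light-chain V entry occurred in 30 of the 81 segments. The comparison took in 103 segments and 60 pseudogenes, and the windows ran over whole transcripts, leader included. No segment shared 50% or more of its windows. Of the 11 called segments, 6 shared none. The read length was longer than this window, and how reads with several matches were counted is not given in the sources used here.

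Heavy-chain V segments, which form the other chain of the antibody, moved alike. The 79 heavy-chain V segments with a summed count of at least 10 summed to 17.2, 16.9 and 18.0 CPM in WT and 48.0, 34.3 and 37.3 CPM in the libraries labelled ISM1-/-, a ratio of 2.30. Their mean was higher in the latter for 66 of 79, beside 50.8% of all genes. In 17 of them all libraries labelled ISM1-/- lay above all WT libraries, beside 8.37%, and 10 of 45 tested were called higher, beside 0.284%. How many of the 45 passed the filter through 1 genotype alone was not counted. Light-chain V reads per heavy-chain V read numbered 1.93, 1.90 and 2.10 in WT and 1.94, 1.84 and 1.71 in the other genotype, and the genotypes overlapped. Light-chain V pseudogenes, which cannot give a chain, summed to 10, 12 and 16 counts in the WT lungs and 31, 9 and 12 counts in the lungs labelled ISM1-/-, with overlap.

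Among the heavy-chain constant genes, Igha and Ighg1 were called, both higher in the libraries labelled ISM1-/-. Igha, the constant gene of IgA, had 413, 595 and 664 counts in the WT lungs and 2911, 1851 and 2977 counts in the lungs labelled ISM1-/- (log2 fold change 2.19, SE 0.19, Benjamini-Hochberg adjusted p = 0.00193, edgeR). Ighg1 (IgG1) had 1, 1 and 9 counts against 43, 15 and 20 (log2 fold change 2.74, adjusted p = 0.0766 by edgeR). No WT library reached 0.5 CPM of Ighg1, so it entered the test because it was high in the other genotype. Ighm (IgM), which naive B cells express, had 4097, 3900 and 3970 counts in the WT lungs and 8524, 5738 and 3985 counts in the other genotype. Ighm did not pass the test (log2 fold change 0.57, SE 0.19, adjusted p = 0.166 by edgeR), and mouse 3 labelled ISM1-/- lay within the WT counts. Ighd (IgD), Ighg2b, Ighg2c and Ighg3 were not called, with adjusted p from 0.104 to 0.849, and Ighe (IgE) had at most 3 counts. Jchain, which links IgA and IgM into polymers in plasma cells, rose from 155, 164 and 173 counts to 935, 536 and 724 counts (log2 fold change 2.13, SE 0.16, adjusted p = 0.00114 by edgeR).

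The summed level of B cell markers differed less between genotypes than that of the light-chain segments. The 12 B cell markers summed to 219, 196 and 216 CPM in WT and 381, 300 and 223 CPM in the libraries labelled ISM1-/-, 11 of 12 had the higher mean in the latter, and none was at 0. None was called by edgeR (5 had an adjusted p under 0.1 and 10 an unadjusted p under 0.05) or by DESeq2. The mouse labelled ISM1-/- 1 was the highest for B cell markers, kappa V and lambda V, and the part of lymph node tissue, whose marker Glycam1 it alone showed, was not tested. Of 11 plasma cell markers tested, Jchain alone was called. Of the 12 listed, 10 had the higher mean in the libraries labelled ISM1-/-, beside 50.8% of all genes. In 3 of the 12 all these libraries lay above all WT libraries, beside 8.37%. The sum of the 12, most of it from Sdc1, Txndc5 and Xbp1, which epithelium also expresses, ranged from 694 to 737 CPM in WT and from 711 to 737 CPM in the other genotype.

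No gene of light-chain rearrangement or of the germinal centre was called higher in the libraries labelled ISM1-/-. Vpreb1 and Vpreb3, parts or partners of the surrogate light chain of B cell precursors, had log2 fold changes of -0.39 and -0.35 (adjusted p = 0.651 and 0.103 by edgeR). For Vpreb3 all WT libraries (493, 505 and 440 counts) lay above all libraries of the other genotype (378, 385 and 378), where 11% of all genes did so. Vpreb2 and Igll1 had at most 1 and 10 counts. Rag1, Rag2 and Dntt were high in WT mouse 3 alone, and without that mouse the log2 ratio of the kappa sum was 1.20. Of 7 germinal centre markers, 5 were tested and none was called (0 at an unadjusted p under 0.05 and 0 by DESeq2). The 8 T cell markers summed to 49.3, 42.7 and 80.7 CPM in WT and 92.0, 71.4 and 56.5 CPM in the libraries labelled ISM1-/-. All 8 had the higher mean in the latter, and none was called (3 at an unadjusted p under 0.05 and 0 by DESeq2). The sums overlapped through WT mouse 3, the mouse high in Rag1, Rag2 and Dntt. It had 501 counts of Cd4 and 561 of Cd8a, against 230 and 206, and 226 and 271, in WT mice 1 and 2. Of the 5 lymph node markers in the table, 2 were tested and none was called (1 at an unadjusted p under 0.05 and 0 by DESeq2). Markers of red blood cells varied widely in both genotypes, from 135 to 445 CPM in WT and from 148 to 623 CPM in the other. None of these 5 markers was called (0 at an unadjusted p under 0.05 and 0 by DESeq2). Of the mice labelled ISM1-/-, the mouse with the most, mouse 2, had the lowest kappa V sum. Of the WT mice, the mouse with the most, mouse 3, had the highest kappa V sum, and the part of blood was not tested. Of 5 adipocyte markers 4 were called lower in the libraries labelled ISM1-/- (5 at an unadjusted p under 0.05 and 3 by DESeq2). Of 6 cardiomyocyte markers Myl7 alone was called lower, while all 6 were lower at an unadjusted p under 0.05 and 0 were called by DESeq2.

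At the threshold of 10 counts, the segments just inside were Igkv4-51 with 10 counts over the 6 libraries, Igkv11-125 with 12 and Igkv4-92 with 13. Just outside were Igkv4-78 with 9 counts and Igkv14-130 and Igkv18-36 with 8 each. The 22 segments below the threshold, all kappa, held 99 counts in all, and 4 of them had none.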

How the data were processed

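RNA of perfused whole lung was sequenced by the authors' provider from poly-A enriched, strand-specific libraries in read pairs, with 1 library per mouse for 3 WT and 3 ISM1-/- mice. Reads of low quality and adaptors were removed by the authors, STAR placed the rest on GRCm38, and the deposited counts are whole numbers of reads per gene without normalization. They also deposited FPKM values, the counts divided by library total and gene length, which were used here only as an alternative for usage shares. The submitters' processing notes also name CASAVA. The counting program, its annotation and strand setting, the treatment of reads with several matches, and whether read pairs that span a V segment and a constant region were counted for one or the other are not given in the sources used here. Groups came from the genotype in the labels. The labels give no litter, cage or sequencing date.

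The whole table was fitted with edgeR 4.0.16 (R 4.3.3). A gene needed 0.5 CPM in 1 library or more (18689 genes), TMM scaled the libraries, and the quasi-likelihood test compared the genotypes without covariates. Benjamini-Hochberg adjustment ran over all genes tested, and genes at an adjusted p under 0.1 and at least 2-fold were called. Log2 fold changes are ISM1-/- over WT. The test was also run on counts simulated from these libraries with known changes. DESeq2 1.42.0 was an alternative, and the others were RLE scaling, TMM without immunoglobulin genes, other filters, an adjusted p of 0.05, no fold minimum, a replicate block, other minimum counts for a segment, FPKM and the omission of each library. Sums, shares and evenness carry no p-value. By chi-square, all pairs of libraries differed by more than sampling noise (at least 5.61 per degree of freedom). Total counts of 37606133 to 42345042 gave 1252 to 3960 light-chain V counts per library, so the sums are well counted and many single segments are not. Intervals cover counting error only.

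The members and the gene lists were chosen with earlier results of these data known. The segments named were the 10 most abundant, the lambda segments, every called segment, the leading segment of each library, those at the threshold and those of at least 1 CPM with the smallest change, and others are identified where they appear. Lists of B cell, plasma cell, germinal centre, T cell, lymph node, red blood cell, cardiomyocyte, adipocyte and lung epithelium markers were used beside them. V exon sequences came from GENCODE M21 transcripts of GRCm38 and were matched by identifier for 103 of 103 entries. Promoters of V segments were not analysed here. Mice of the same replicate number are different animals.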

Additional observations from a re-analysis of the deposited data

How the results depend on the processing

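The kappa and lambda sums kept their direction and moved by less than the spread between replicates under every scaling, minimum count and omitted segment or library tried, with log2 ratios from 0.89 to 1.22 for kappa and from 0.86 to 1.19 for lambda over the omitted libraries. The number of segments called was the least stable. It was 11 in the reported fit, 12 with DESeq2 (10 of the 11 and 2 others, with no adjusted p for Igkv8-21), 25 with no filter beyond 1 count, 4 when a mean above 2 CPM was required (6 segments tested) and 6 at an adjusted p under 0.05, and it ran from 3 to 22 when single libraries were left out. The 10 segments called higher were also called with RLE scaling, with TMM without immunoglobulin genes and with a filter of 0.5 CPM in at least 3 libraries. For Igkc the log2 fold change ran from 0.92 to 1.23 over the omitted libraries. The lambda share of V counts differed by -0.632 percentage points between genotypes, the evenness by -0.0170 and the effective number of segments by -3.24. Over the omitted libraries they ran from -1.85 to 0.348, from -0.0391 to 0.00786 and from -7.84 to 1.79, so none has a settled sign. Without single libraries the segments with a higher mean in the libraries labelled ISM1-/- numbered from 71 to 77, and those without overlap from 27 to 49 (beside 11.6% to 16.1% of all genes), alternatives chosen after seeing the data. The log2 fold change of Igkv19-93 ran from -0.11 (without WT mouse 2) to 0.57 (without WT mouse 1), and was -0.05 without the mouse labelled ISM1-/- 1. That of Igkv10-94 ran from -0.50 (without WT mouse 2) to 0.33 (without WT mouse 3), and was 0.03 without the mouse labelled ISM1-/- 2. The replicate numbers did not pair the mice (correlations of deviations for equal numbers of -0.0405, 0.031 and 0.001), and a replicate block gave 14 calls, among them all 11 of the reported fit and Igkv1-135. Segments with fewer than about 20 counts in a library could not be tested or were tested with little power.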
